A study of Mus musculus with 2 samples.

Results

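The RNAs described here were the annotated small nucleolar RNAs (snoRNAs) and small Cajal body RNAs (scaRNAs) of mouse embryonic stem cells cultured with or without folate. Members were the rows of the gene expression table whose symbol begins with Snora, Snord or Scarna followed by a number and whose gene does not lie on chromosome 12. The rule uses names and positions only, and it gave 25 of the 28839 genes in the table: 15 box H/ACA RNAs (Snora), 6 box C/D RNAs (Snord) and 4 Cajal body RNAs (Scarna). A single named RNA on chromosome 12, Scarna13, was left out by the rule. RNA came from Sv129 mESCs, an embryonic stem cell line of mouse, grown in DMEM with fetal bovine serum. FA4 cells received folate at a final concentration of 4 mg/L and FA0 cells received 0 mg/L, and no other difference between the cultures is given. Total RNA was the starting material, and the methods do not say whether RNA with poly(A) tails was selected or which fragment sizes were kept. Each condition had 1 library, so the differences below are between 2 libraries, were checked on no replicates and carry no p-values.

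Small nucleolar RNAs are guides for the chemical modification of other RNAs. Box C/D RNAs carry short sequences called the C box and the D box, bind Fbl, Nop56, Nop58 and Snu13, and direct the methylation of ribose sugars in ribosomal RNA. Box H/ACA RNAs fold into hairpins that end in an H box and an ACA triplet, bind Dkc1, Gar1, Nhp2 and Nop10, and direct the change of uridine to pseudouridine. The methyl group that Fbl transfers comes from S-adenosylmethionine, a product of the methionine cycle that folate feeds. Small Cajal body RNAs are built like one class or the other, or like both joined together, and guide the modification of the small nuclear RNAs of the spliceosome in the Cajal body. In mammals most of these RNAs are cut from introns of a containing ("host") gene, which is often a gene for a ribosomal protein or a nucleolar protein.

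The table held only part of each class, and no RNA under 100 bases. GENCODE M21 annotates 147 RNAs of these names outside chromosome 12, and 26 of them (17.7%) had a row. None of the 89 that are under 100 bases long had one, and the shortest row of the whole table was 100 bases. Box C/D RNAs are the shorter class, with a median annotated length of 84 bases, and 87 of the 99 lay under that limit. Only 6 of the 12 longer ones were in the table. Box H/ACA RNAs have a median annotated length of 133 bases, and 16 of 41 were in the table. One of those 16 is named Snora43 in GENCODE but carries the symbol Snhg7 in the table, so it is no member, and it had 1 read in FA4 against 0 in FA0. Of the 7 Cajal body RNAs, 4 were in the table. By GENCODE length, the 6 box C/D members are therefore at the long end of their class. A second annotation, RefSeq, puts several of them under 100 bases: Snord43 (48), Snord89 (94), Snord23 (99) and Snord8 (99).

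**Figure D1:**
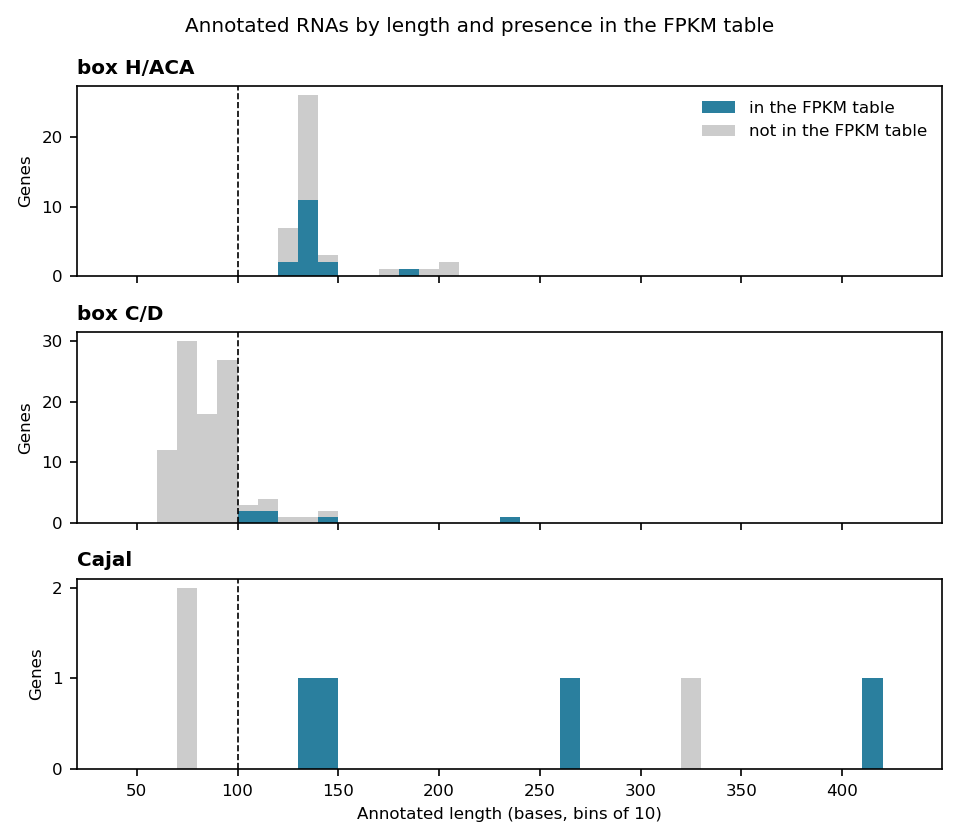
Annotated length in bases (x axis, bins of 10) of box H/ACA, box C/D and Cajal body RNAs outside chromosome 12, with the number of genes on the y axis, coloured by presence in the expression table. The dashed line marks 100 bases, and none of the 89 RNAs to its left had a row, of which 87 are box C/D RNAs.

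The sequences of the members the results turn on are shown with the boxes that place them in a class, from GENCODE M21 transcripts on mm10 (GRCm38), 5′ to 3′. In box H/ACA RNAs, capitals mark the first match to the H box (ANANNA, wholly in the central stretch when the RNA is cut into 3 equal parts) and an ACA that lies 3 bases from the 3′ end. Snora57 (chr19:8888538-8888685, minus strand) and Snora31 (chr14:75847905-75848034, plus strand) had the most reads. Snora78 (chr17:24719676-24719803, minus strand) had the lowest ratio of FA0 to FA4 among members with reads in both libraries. Snora34 (chr15:98519716-98519853, minus strand) and Snora2b (chr15:98526346-98526482, minus strand) lie in the same gene and had ratios on opposite sides of equal levels. Snora47 (chr13:95330600-95330737, plus strand) was also lower in FA0.
Snora57: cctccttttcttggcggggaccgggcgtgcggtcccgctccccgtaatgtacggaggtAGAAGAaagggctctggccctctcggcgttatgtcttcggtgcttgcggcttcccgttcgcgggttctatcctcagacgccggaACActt
Snora31: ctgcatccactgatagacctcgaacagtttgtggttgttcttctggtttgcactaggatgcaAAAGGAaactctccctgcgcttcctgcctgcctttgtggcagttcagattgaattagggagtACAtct
Snora78: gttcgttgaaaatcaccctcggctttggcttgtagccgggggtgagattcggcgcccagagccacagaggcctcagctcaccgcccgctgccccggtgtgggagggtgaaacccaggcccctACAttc
Snora34: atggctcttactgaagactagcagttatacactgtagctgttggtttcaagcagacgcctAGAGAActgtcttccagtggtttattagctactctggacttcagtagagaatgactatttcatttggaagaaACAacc
Snora2b: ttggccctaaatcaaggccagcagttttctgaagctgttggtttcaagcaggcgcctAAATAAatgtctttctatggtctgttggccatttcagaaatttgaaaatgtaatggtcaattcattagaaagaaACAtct
Snora47: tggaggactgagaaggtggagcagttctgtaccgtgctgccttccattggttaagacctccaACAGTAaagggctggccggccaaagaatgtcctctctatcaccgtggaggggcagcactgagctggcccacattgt

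In box C/D RNAs and Cajal body RNAs, capitals mark the C box (TGATGA, beginning in the first of 3 equal parts) and the last D box (CTGA, in the last part). Snord89 (chr1:39548745-39548854, minus strand) and Snord43 (chr15:80082847-80082954, minus strand) had the largest differences in reads of their class, and Scarna6 (chr1:87784556-87784820, plus strand) is the Cajal body RNA with a C box and a D box at its ends.
Snord89: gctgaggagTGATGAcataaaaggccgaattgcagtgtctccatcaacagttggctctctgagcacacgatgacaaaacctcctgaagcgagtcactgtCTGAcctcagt
Snord43: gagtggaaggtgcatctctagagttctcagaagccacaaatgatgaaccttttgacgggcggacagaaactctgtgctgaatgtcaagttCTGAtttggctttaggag
Scarna6: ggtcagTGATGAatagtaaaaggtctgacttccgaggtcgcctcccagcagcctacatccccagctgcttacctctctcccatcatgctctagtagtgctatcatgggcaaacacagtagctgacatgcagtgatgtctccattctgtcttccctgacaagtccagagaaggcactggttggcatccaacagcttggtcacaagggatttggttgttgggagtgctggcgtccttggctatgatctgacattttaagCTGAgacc

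Most box H/ACA and box C/D RNAs carried the boxes of the class they are named for. On the transcribed strand, an ACA lay 3 bases from the 3′ end in 13 of the 15 box H/ACA RNAs, and both it and an H box were found in 12. In Snora17 the last ACA ends 2 bases and in Snora47 4 bases before the 3′ end, and Snora78 has no ANANNA wholly in its central part. The comparison was 1024 other genes of at most 300 bases in the table, with rows typed snoRNA or scaRNA left out. Of these, 0.879% had both boxes, although the loose H box alone was in 705 of them. The C box and the D box were both found in 5 of the 6 box C/D RNAs, in none of the box H/ACA RNAs and in 1.17% of the same 1024 genes. The exception, Snord43, has its first TGATGA at base 41 of 108, beyond the first of the 3 parts. Of the Cajal body RNAs, Scarna6 had the C and D boxes and Scarna8 the H box with the ACA.

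FPKM (fragments mapped to a gene, scaled for its exon length and the library's total) was turned back into reads with each gene's length, and the 50 values of the members lay within 0.00047 of a whole number. The libraries were similar in depth, with 19529468 reads over all genes in FA4 against 18362286 in FA0. The members held 271 and 254 of these, or 14.4 and 14.3 for each 1000000 of the total to which the FPKM are scaled. A single read of Snord43, the shortest member at 108 bases, is worth an FPKM of 0.492 in FA4 against 0.523 in FA0. Only 9 members had 20 or more reads over both libraries, 14 had 10 or more, and 4 had at most 5. Ratios of FPKM are given below as FA0 over FA4 with 95% Clopper-Pearson intervals, which cover the counting error of reads and not the spread between cultures. The intervals of 24 members held equal levels, and those of 21 held both equal levels and a 2-fold difference. The treatment of strand and of multi-mapped reads by the authors is not given in the sources read here, so reads of a small RNA, of the intron around it and of a gene on the opposite strand cannot be told apart. In bulk RNA, fewer cells of a kind and less RNA per cell cannot be told apart either.

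**Figure D2:**
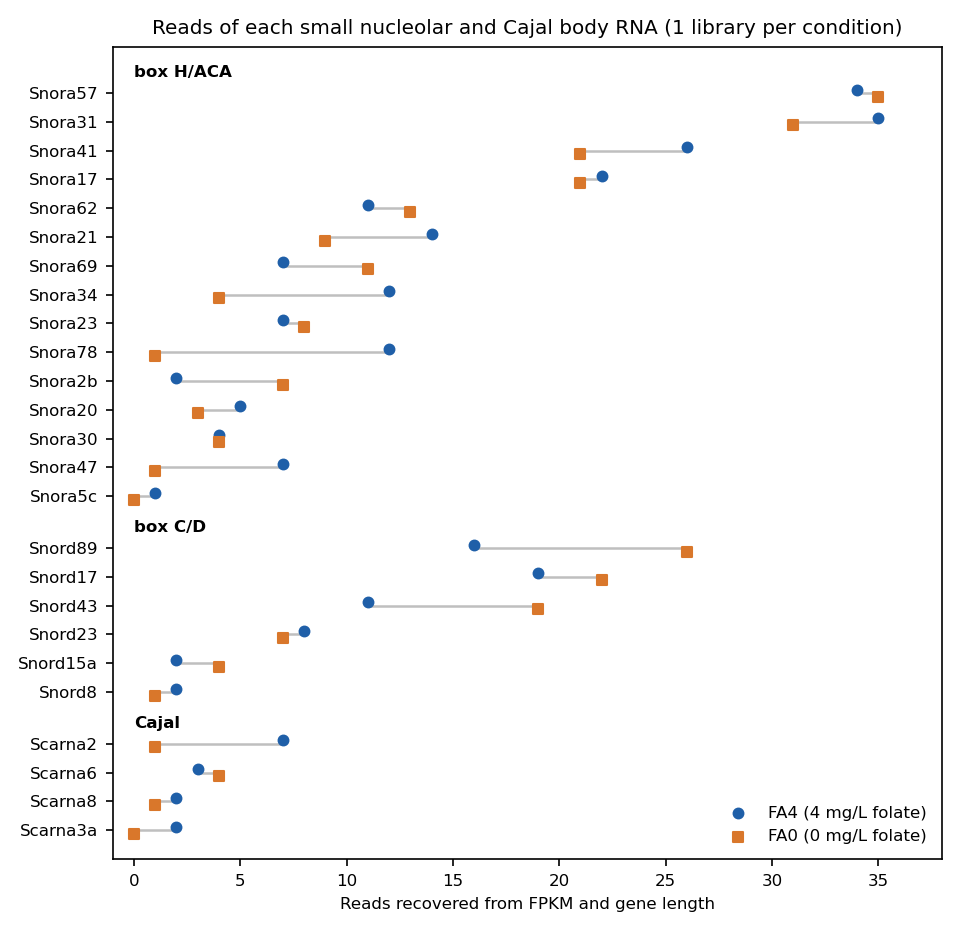
Reads of each member (x axis) in FA4 (circles) and FA0 (squares), by class and in order of summed reads, with 1 library per condition. Members with 20 or more reads over both libraries, such as Snora57 with 34 and 35, differ by at most 5 reads except Snord89 and Snord43, while Snora78 went from 12 reads in FA4 to 1 in FA0.

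The summed ratios of the classes lay on both sides of equal levels, and the intervals of box H/ACA and Cajal body RNAs held equal levels. The 15 box H/ACA RNAs together had 10.6 reads in FA4 and 9.55 in FA0 for each 1000000 of the fitted total, a ratio of 0.902 (0.731 to 1.11). The 6 box C/D RNAs had 58 and 79 reads, a depth-scaled ratio of 1.45 (1.02 to 2.07). The Cajal body RNAs had 14 and 6 reads, a ratio of 0.455 (0.143 to 1.26). The box C/D interval left out equal levels by a small margin and held them once Snord43 was removed, with a ratio of 1.36 (0.910 to 2.03). GENCODE types the row of Snord43 as a miRNA, and it is the 1 member not typed there as snoRNA or scaRNA. Without the class members that have several annotated copies of their number, which for box C/D is Snord15a, the ratio was 1.42 (0.993 to 2.05). Whether the classes differ from each other was not tested, and the intervals of box H/ACA and box C/D overlap.

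For each gene a change was also computed, the log2 ratio of FPKM + 1 with FA0 over FA4, for genes with an FPKM of at least 1 in either library. Of the 25 members, 19 passed this minimum, and 4 of these (Snora2b, Snora47, Snora78 and Snord15a) passed it in 1 library only and so had to differ. The median change was -0.03 over 14 box H/ACA RNAs and 0.56 over 5 box C/D RNAs, while the median of all 14345 genes that passed was 0.0477. None of the Cajal body RNAs passed. A change of at least 1 in size, a 2-fold difference on this scale, was found in 4 of the 19 members (21.1%), against 4.32% of all genes. Among the 459 other genes with at most 300 bases of exon that passed, the share was 35.3%. Of these 459, 228 passed in 1 library only, as did 1514 of the 14325 genes with a known length. The 4 were all box H/ACA RNAs: Snora2b was higher in FA0 (2.99% of all genes), and Snora34, Snora47 and Snora78 were lower (1.32% of all genes). Of these, only Snora34 passed the minimum in both libraries. With a ratio of at least 2 and 10 or more reads in place of the pseudocount, 2 of 14 members (Snora78 and Snora34) were lower and none higher, where 4.74% and 11.2% of all genes were. In either direction this was 14.3% of members, 16.0% of all genes and 30.3% of other short genes.

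Of the box H/ACA RNAs, the best covered had counting intervals that held equal levels. Snora57 had an FPKM of 12.2 in FA4 against 13.4 in FA0, from 34 and 35 reads, a ratio of 1.09 (0.662 to 1.81). Snora31, whose human form guides the pseudouridylation of ribosomal RNA, had 14.3 and 13.5, from 35 and 31 reads, a ratio of 0.941 (0.561 to 1.57). These 2 RNAs had the highest FPKM of the class in both libraries, with Snora31 first each time. Snora41 had an FPKM of 10.5 in FA4 against 8.99 in FA0, from 26 and 21 reads, and Snora17 had 8.86 and 8.99, from 22 and 21 reads. Snora62, also known as E2, had 3.93 and 4.93, from 11 and 13 reads. Snora21 had 5.43 and 3.71, from 14 and 9 reads, a ratio of 0.683 (0.261 to 1.69). All 6 of these intervals held equal levels, and those of Snora41 (0.459 to 1.59), Snora62 (0.519 to 3.09) and Snora21 also held a 2-fold difference. The 6 together had 142 reads in FA4 against 130 in FA0, a ratio of 0.972 (0.761 to 1.24).

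The larger differences lay among box H/ACA RNAs with under 20 reads. Snora78 had an FPKM of 4.98 in FA4 against 0.441 in FA0, from 12 reads and 1 read. It was 11.3-fold lower in FA0 with a counting interval from 1.67 to 483, and it was the 1 member of the 25 whose interval left out equal levels. Among members with 10 or more reads this is 1 of 14 (7.14%), where the interval left out equal levels in 51.6% of all genes (20.9% lower and 30.6% higher in FA0) and in 26.6% of other short genes. Snora78 lies inside Snhg9, a non-coding host gene on the same strand, which had 0 reads in FA4 against 2 in FA0. On the opposite strand it lies inside Rps2, a ribosomal protein gene, outside its exons. Rps2 had an FPKM of 1502 in FA4 against 848 in FA0, a ratio of 0.564 (0.556 to 0.573), which the interval of Snora78 (0.00207 to 0.598) holds. The part of Rps2 in the reads of Snora78 was not tested. RefSeq gives Snora78 157 bases where GENCODE gives 128. Without Snora78, the summed ratio of the box H/ACA RNAs was 0.954 (0.770 to 1.18). Without Snora78, Snora47 and Snora34, a set picked by its low values with Snora2b kept, it was 1.03 (0.826 to 1.29).

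Snora34 and Snora2b are both in Kansl2, which encodes a subunit of a histone acetyltransferase complex, and their values lay in opposite directions, with both counting intervals holding equal levels. Snora34 had an FPKM of 4.62 in FA4 against 1.64 in FA0, from 12 and 4 reads, a ratio of 0.354 (0.0832 to 1.17). Snora2b had 0.776 and 2.89, from 2 and 7 reads, a ratio of 3.72 (0.708 to 36.7). Kansl2 itself had 26.0 and 24.5. Added together, the pair had 14 reads in FA4 against 11 in FA0, a ratio of 0.835 (0.343 to 1.98). As printed above, the 2 RNAs were alike in sequence: 100 of 147 aligned columns were identical (68.0%), the highest of the 300 pairs of members, whose median was 48.4% and whose second highest was 60.3%. They share an unbroken run of 19 bases, agctgttggtttcaagcag, which begins at base 36 of Snora34 and base 33 of Snora2b, while no other pair of members shared a run over 11. Both also overlap an exon of another transcript, Snora34 that of Mir1291 (4 reads in FA4, 2 in FA0) and Snora2b an exon of Kansl2.

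Snora47 had an FPKM of 2.70 in FA4 against 0.409 in FA0, from 7 reads and 1 read, a ratio of 0.152 (0.00337 to 1.18). Its containing gene Zbed3, which encodes a zinc finger protein, was at 15.4 and 19.5. The remaining box H/ACA RNAs had from 1 to 11 reads in a library where they were seen. Snora69 went from 7 reads to 11, a ratio of 1.67 (0.591 to 5.08), and Snora23 from 7 to 8. Snora20 had 5 reads in FA4 against 3 in FA0, and Snora30 had 4 in each. Snora5c had 1 read in FA4 against 0 in FA0, where a count of 0 allows up to 3 reads, so no fold is given. Of the 15 RNAs, 7 had a higher FPKM in FA0 and 8 a lower one.

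**Figure D3:**
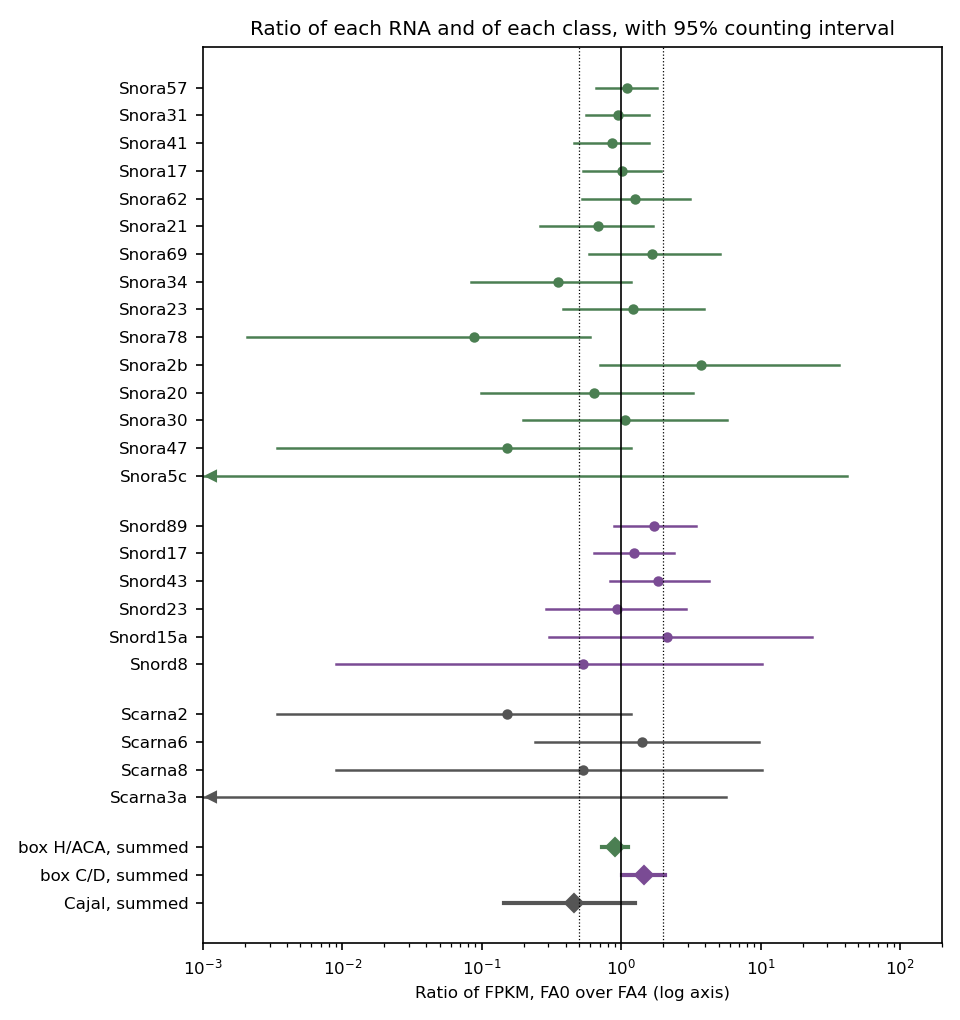
FA0 to FA4 ratio of FPKM (log x axis) of each member and of the summed reads of each class (diamonds), with lines for the 95% counting interval, a solid line at equal levels and dotted lines at a 2-fold difference. Arrowheads mark Snora5c and Scarna3a, which had 0 reads in FA0, and Snora78 is the member whose interval ends below equal levels.

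The box C/D RNAs with the most reads had higher values in FA0, with equal levels inside each counting interval. Snord89 had an FPKM of 7.73 in FA4 against 13.4 in FA0, from 16 and 26 reads, a ratio of 1.73 (0.892 to 3.44). Snord43, whose human form guides the methylation of the RNA of the small ribosomal subunit, had 5.42 and 9.94, from 11 and 19 reads, a ratio of 1.83 (0.830 to 4.27). Snord17 had 4.24 and 5.22, from 19 and 22 reads, a ratio of 1.23 (0.635 to 2.40). Snord89 and Snord43 together held 27 of the class's 58 reads in FA4 against 45 of 79 in FA0. Without this pair, picked by its high values so that the ratio had to fall, the summed ratio was 1.17 (0.695 to 1.96). The other 3 had few reads. Snord23 had 8 reads in FA4 against 7 in FA0, Snord15a had 2 and 4, and Snord8 had 2 and 1. RefSeq gives Snord43 48 bases and GENCODE 108, and over all 25 members the RefSeq length was shorter in 20, equal in 3 and longer in 2.

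Length, as annotated in GENCODE, and class overlapped among the members. The 4 members under 120 bases were all box C/D RNAs and had 37 reads in FA4 against 53 in FA0, a ratio of 1.52 (0.981 to 2.38). The 18 members from 120 to under 200 bases, 15 of them box H/ACA, had a ratio of 0.902 (0.732 to 1.11), and the 3 of at least 200 bases 0.989 (0.563 to 1.73). Members with 20 or more reads over both libraries had a summed ratio of 1.11 (0.907 to 1.37), and those with fewer 0.730 (0.511 to 1.03). Which of class, length and read number goes with the ratio cannot be told apart among 25 RNAs.

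The Cajal body RNAs were near the limit of detection in both libraries, with an FPKM below 1 throughout. Scarna2, which in human is a box C/D RNA that guides methylation of a spliceosomal RNA, had 0.899 in FA4 against 0.136 in FA0, from 7 reads and 1 read over its 414 bases, a ratio of 0.152 (0.00337 to 1.18). Scarna6 had 0.602 and 0.853, from 3 and 4 reads. Scarna8 had 0.812 and 0.431, from 2 reads and 1 read. Scarna3a had 2 reads in FA4 against 0 in FA0, and a count of 0 allows up to 3 reads, or an FPKM of 1.21. RefSeq gives Scarna2 61 bases where GENCODE gives 414. Scarna2 supplied most of the class's difference. Without Scarna2, picked by its large difference, the class had 7 reads in FA4 against 5 in FA0, a ratio of 0.759 (0.190 to 2.78). Scarna3a overlaps the annotated microRNA Mir1843b, and Scarna3a and Snord15a have more than 1 annotated copy of their number.

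Most members had a lower FPKM than the gene that contains them. Poly(A) selection and fragment sizes are not given, and whether short RNAs and longer transcripts were recovered alike was not tested. The FPKM therefore do not rank their amounts in the cells. On the same strand, 22 of the 25 lay inside another gene of GENCODE M21. The exceptions were Scarna2, Snora57 and Snora17, of which the last 2 were among the 4 box H/ACA RNAs with the most reads. Snora57 lies inside Lbhd1 on the opposite strand, which had an FPKM of 4.05 and 4.36, and RefSeq places Snora17 within the span of the host gene Snhg7. The small RNA had a lower FPKM than its containing gene in both libraries in 19 of the 22. Snora78 was above Snhg9 in FA4, and Snord89 and Snora30 were above their containing genes in both. Snord89 lies in Gm15832, which had an FPKM of 1.83 in FA4 against 1.08 in FA0, so the containing gene was lower in FA0 while Snord89 was higher. Snora30 had 1.64 and 1.74, against 0.396 and 0.323 for Gm42715. It also lies inside Srcap on the same strand, the gene that RefSeq places around it, which encodes a chromatin remodeller and had an FPKM of 0.206 and 0.401, a ratio of 1.95 (1.42 to 2.71).

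The ratios of the containing genes spanned a narrower range than those of the small RNAs, which rest on far fewer reads. The 23 members with reads in both libraries ran from 0.0885 to 3.72. Over the 21 containing genes with reads in both libraries, counted once per member, the ratio of FPKM ran from 0.590 to 1.27, and the small RNA was on the same side of equal levels as its gene in 11 of 21. With Srcap in place of Gm42715 around Snora30, a choice added after the values were seen, the range ended at 1.95 and the count was 12 of 21. The 5 members inside ribosomal protein genes were Snora62 in Rpsa, Snora21 in Rpl23, Snora69 in Rpl39, Snord43 in Rpl3 and Snord15a in Rps3, and the ratios of those genes ran from 0.801 to 1.05. Rpsa went from 835 in FA4 to 669 in FA0, while Snora62 was at 3.93 and 4.93. Rpl3 was at 376 and 396, while Snord43 was at 5.42 and 9.94. Snora31 lies in Tpt1, a gene for a translationally controlled tumour protein, at 790 and 665, and Snora41 in Eef1b2, a translation elongation factor gene, at 284 and 337. Other containing genes were Snx5 around Snord17 (94.5 and 109.9), Nop53 around Snord23 (41.9 and 39.8), Haus6 around Scarna8 (16.6 and 15.3) and Atg16l1 around Scarna6 (6.76 and 6.78).

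**Figure D4:**
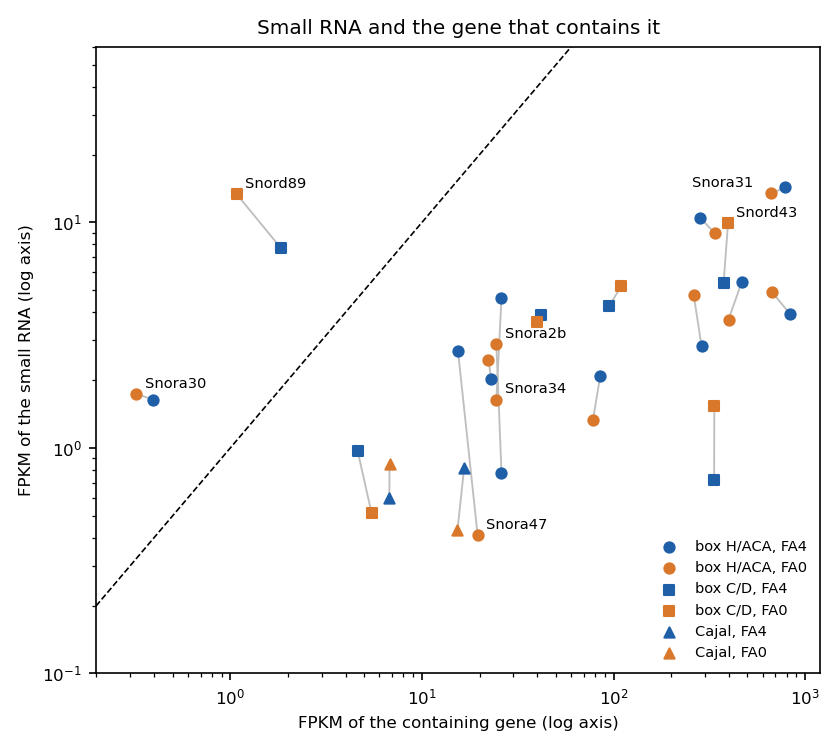
FPKM of the small RNA (y axis, log) against FPKM of the gene that contains it (x axis, log), in FA4 (blue) and FA0 (orange), for the 19 members with reads of both in both libraries, each pair joined by a line. The dashed line marks equal FPKM, and only Snord89 and Snora30 (drawn against Gm42715) lie above it.

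The proteins that these RNAs work with differed less than 2-fold on the change scale. Of all genes that passed the minimum, 4.32% were called, so few or no calls are the usual outcome for lists this short. All 4 core proteins of box H/ACA particles passed the minimum, with a median change of 0.07 and none called. Gar1 had an FPKM of 62.0 in FA4 against 83.2 in FA0, a ratio of 1.34 (1.27 to 1.42), and Nop10 had 63.5 and 50.9, a ratio of 0.801 (0.737 to 0.870). Dkc1, the pseudouridine synthase, had 46.1 and 49.2, and Nhp2 had 142 and 148. The 4 core proteins of box C/D particles had a median change of -0.11 and none called. Fbl, the methyltransferase, had 72.2 and 57.9, a ratio of 0.801 (0.770 to 0.834). Snu13 was at 85.5 and 76.9, Nop58 at 59.9 and 57.3, and Nop56 at 133 and 141. These proteins had from 999 to 12116 reads in a library, so their intervals are narrow, but they too come from 1 library per condition.

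None of the 14 genes for assembly and maturation of the particles that were in the table was called, where 4.32% of all genes were. Their median change was -0.05. The largest differences in that list were in Pih1d1, a cofactor of the assembly chaperone, with an FPKM of 27.4 in FA4 against 21.3 in FA0, and in Naf1, which loads box H/ACA RNAs before Gar1 replaces it, with 11.1 and 14.2. Ruvbl2 was at 74.8 and 61.3 and Rpap3 at 11.9 and 9.86. Of the 10 Cajal body genes, 9 passed the minimum and none was called, beside the same 4.32% of all genes, with a median change of -0.07. Wrap53, which brings small Cajal body RNAs and telomerase RNA to the Cajal body, had 44.4 and 31.7, a ratio of 0.713 (0.661 to 0.768). Smn1 was at 35.3 and 27.0, Lsm11 at 2.33 and 3.20 and Coil, which encodes the coilin scaffold, at 19.5 and 21.8. Terc, the telomerase RNA, ends in an H/ACA domain and had 12 reads in FA4 against 11 in FA0. Tert, its protein partner, had 3.76 and 8.23, a ratio of 2.19 (1.94 to 2.47), with a change of 0.96 that fell short of the limit.

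Other rows of the same kind give the setting for these values. The table held 171 further rows that GENCODE types as snoRNA or scaRNA. They had 733 reads in FA4 against 806 in FA0, a ratio of 1.17 (1.06 to 1.29), and of the 86 that passed the minimum 27.9% were called higher and 5.81% lower. Of these 86, 48 passed the minimum in 1 library only and so had to differ. For the members the shares were 5.26% higher and 15.8% lower, on 1 and 3 RNAs. Whether the members differ from these rows was not tested, and 1 of the 25 members, Snord43, is not of these types. The 1194 other genes with at most 300 bases of exon had a summed ratio of 0.947 (0.924 to 0.970).

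Markers were read to check the labelled cell type. All 6 markers of mouse embryonic stem cells were present, and their summed FPKM was 2508 in FA4 against 1845 in FA0. The fibroblast markers were read because embryonic stem cells can be kept on feeder cells. They summed to 6.48 and 6.79 over the 6 of 8 listed genes that were in the table. Thy1 (4.21 and 4.53) and Pdgfrb (2.02 and 1.86) held most of this sum, and only these passed the minimum. Col1a1, their defining collagen, was at 0.203 and 0.301. The 6 markers of primitive endoderm summed to 5.79 and 2.88. Only Gata4 (1.51 and 1.10) and Gata6 (2.58 and 0.778) passed the minimum. Gata6 was called lower with a change of -1.01, as were 1.32% of all genes. Below the minimum, Sox17, Sox7 and Pdgfra were lower in FA0, while Foxa2 was higher (0.202 and 0.405). The part of these differences in the values of the small RNAs was not tested.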

How the data were processed

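Libraries were made from TRIzol-extracted total RNA with the NEBNext Ultra kit, and the authors mapped the reads to mm10 and deposited FPKM for each gene. Tools named in the submitters' processing notes are StringTie 1.3.3b, HISAT2 2.1.0 and DESeq 1.28.0. The members and lists were chosen with earlier results of these data known. Named RNAs were all Cajal body members, the 8 box H/ACA and box C/D members with most reads, the 6 largest and 6 smallest ratios at 20 or more reads, every member called, and containing genes; the rest are given so that all 25 are accounted for.

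Reads were recovered as FPKM × merged exon length in GENCODE M21 × a scaling total fitted to low values (18807010 for FA4, 17704596 for FA0). Within 20 reads, 97.9% (FA4) and 98.1% (FA0) of values lay within 0.05 of a whole number. Lengths were found for 28767 rows and not for 72. The reads are not independent molecules, so intervals cover counting error only. Recovery, calls and intervals were tested on simulated data. No count test was run, since each condition had 1 library. Alternatives were other pseudocounts and minimums, a median-ratio scaling, TPM, and leaving out members. RefSeq rows (GRCm38.p6) matched all 25 members. Python 3.11.15, pandas 2.3.3, scipy 1.17.1 and Biopython 1.88 were used.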

Additional observations from a re-analysis of the deposited data

How the results depend on the processing

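No paired analysis was possible because each condition had 1 library, and for the same reason no library could be left out. Of 75 alternative values, 64 stayed near the reported ones and 11 moved, and the cause was not tested. The median change of box C/D RNAs was 0.78 with a pseudocount of 0.1, 0.73 with 0.5, 0.40 with no minimum and 0.72 with a minimum FPKM of 5. The median change of all members, 0.0547 as computed with a minimum FPKM of 1, changed sign to -0.082 with no minimum and to -0.0065 after rescaling to TPM, so it has no settled direction. With a minimum FPKM of 5, which 8 members passed, 0 were called higher and 0 lower. None (0) was called higher of 14 with at least 10 reads or of 17 without the members that overlap an exon of another gene. The same held for 14 with no pseudocount and at least 10 reads, a setting chosen after seeing the data, where 11.2% of all genes were higher. After rescaling to TPM, the pseudocount and minimum apply to larger values. All 25 members then passed and 6 were called lower, where 3 of 19 were in the main setting. For the other settings the share of all genes called is not given here, so these counts are not results about the members. The summed ratio ran from 0.902 to 0.954 for box H/ACA RNAs, from 1.42 to 1.55 for box C/D RNAs and from 0.458 to 0.531 for Cajal body RNAs. The median change of Cajal body RNAs had no value with the minimum FPKM of 1, and their summed ratio had none under a minimum FPKM of 5, a minimum of 10 reads or a mean FPKM of at least 1. Depth limits the values of single small RNAs: the intervals of 21 members hold both equal levels and a 2-fold difference.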
